A study of Mus musculus with 16 samples.

Results

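Quadriceps RNA-seq of mice on control diet (CON) was compared between 4 libraries taken 3 h after 1 maximal run on a treadmill (CON-post) and 4 libraries taken before exercise (CON-pre). Libraries were assigned by their labels, and these were 8 of the 16 libraries of the series. All mice were 16-week-old C57BL/6NTac males, and the other 8 libraries came from mice on high-fat diet, likewise before (HFD-pre) and 3 h after (HFD-post) the bout. According to the Methods, the mice ran on an incline at rising speed until exhaustion, and the pre-exercise mice had the same acclimatization to the treadmill and the same fast. CON-pre and CON-post were different mice. After the run the mice had water but no food, and the sources used here give neither a clock time for the CON-pre collection nor the hours its mice had fasted by then, so a part of food withdrawal or time of day in the differences was not tested. The labels do not say that each library came from its own mouse, so the p-values measure the spread between these libraries.

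A single bout of running activates a brief transcriptional programme in skeletal muscle. Calcium, cyclic AMP, stress kinases, AMP-activated kinase and stretch of the sarcomere switch on immediate early transcription factors within minutes to hours. These are followed by coactivators of mitochondrial and fatty acid genes, by chaperones and antioxidant enzymes, and by genes that repair and remodel the sarcomere. Much of this programme is over by the next day, so the hour of sampling decides which genes are seen.

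Expression was deposited as FPKM (fragments mapped to a transcript, divided by its length and by the library total) and summed per library to 305490 to 327559 FPKM in CON-pre and 298638 to 329282 FPKM in CON-post. Depth relative to the other libraries, read from the smallest values, was 0.705 to 1.10 in CON-pre and 0.835 to 1.06 in CON-post, and the absolute depth is unknown. Muscle fibre markers were high in all 8 libraries. Myh4, the myosin heavy chain of the fastest fibres, was between 8319 and 9386 FPKM in CON-pre and between 7909 and 9499 FPKM in CON-post. No member of the 14 marker lists for fibres and other cell types was called in either direction. However, liver, marrow and bone markers were higher in some CON-pre libraries, and skin markers were highest in CON-post 1. The summed FPKM of the liver list was 0.346 to 24.4 in CON-pre and 0.271 to 1.36 in CON-post, that of the marrow list 6.69 to 73.8 and 2.22 to 19.5, and that of the bone list 1.98 to 40.2 and 2.80 to 5.69. The skin list summed to 1.85 to 4.79 FPKM in CON-pre, to 14.1 FPKM in CON-post 1 and to 0.303 to 1.10 FPKM in the other CON-post libraries. Albumin (Alb) was at 13.5, 3.57, 8.38 and 0.238 FPKM in CON-pre and between 0.153 and 0.565 FPKM in CON-post, and all 4 tested liver, all 6 marrow and all 4 bone markers had a negative fold change. In bulk tissue, fewer cells of a type and less RNA per cell cannot be told apart, and the part of these tissues in the results below was not tested.

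The 11256 genes whose mean over the 16 libraries was 0.5 FPKM or more were tested with limma on log2(FPKM + 0.5), and a gene with a Benjamini-Hochberg adjusted p under 0.05 was called a differentially expressed gene (DEG). On that scale, changes of low genes come out smaller than their FPKM ratio. At 3 h after running, 125 genes were DEG, which is 1.11% of those tested. Of these, 109 (0.968% of genes tested) were up-regulated and 16 (0.142%) were down-regulated. The median log2 fold change was 0.84 for the up-regulated and -0.57 for the down-regulated genes, against -0.0058 for all genes. The rises were therefore both more numerous and larger than the falls: 46 of them reached a log2 fold change of 1 and 6 of them reached 2, while no fall reached -1. Before exercise, 53 of the 109 up-regulated genes were under 5 FPKM and 15 were over 50 FPKM. FPKM did not overlap between the 4 CON-pre and the 4 CON-post libraries for 121 of the 125 DEG and for 5.82% of all genes tested, that is for 105 rises and 16 falls, where 3.29% of all genes were higher and 2.53% lower without overlap. The 4 DEG with an overlap were Aqp1, Arl4d, Gadd45a and Snai3, which are named because their values were seen. The balance of directions moved with the scaling, to 102 rises and 40 falls with upper-quartile scaling and 113 rises and 41 falls with quantile normalization. With only the 8 CON libraries in the fit, which leaves fewer libraries to estimate the spread, there were 67 rises and 5 falls. Of the 64 DEG named by rule, 20 lost the call in that fit: the rises Fos, Jun, Mcl1, Dusp10, Mlycd, Aacs, Gabarapl1, Phlda1, Gadd45a, Ern1, Cited2, Fgf1 and Map3k8, and the falls Hoxa4, 6430571L13Rik, Nrep, Pik3cd, Plcd4, Dhcr7 and Myl1.

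**Figure D1:**
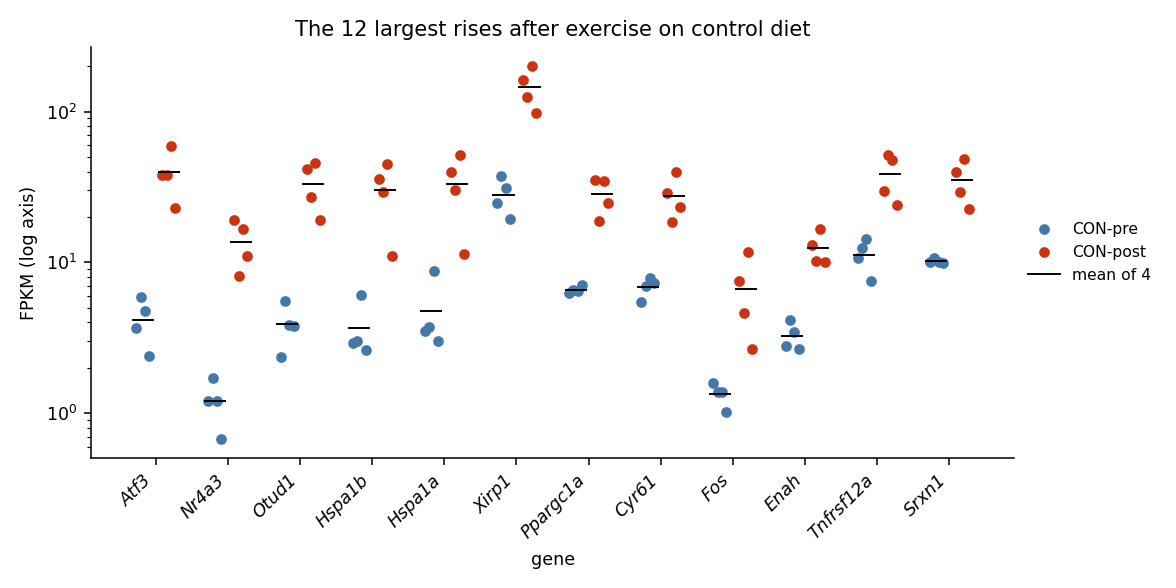
FPKM on a log axis of the 12 DEG with the largest log2 fold change after exercise, in the 4 CON-pre (blue) and 4 CON-post (red) libraries, with a black line at the mean of 4. No gene shown has a CON-post library as low as its highest CON-pre library.

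The immediate early transcription factors Atf3, Nr4a3 and Fos were among the 12 DEG with the largest rises. The AP-1, ATF and small Maf factors are leucine zipper proteins that bind DNA in pairs, and 5 of the 10 tested were up-regulated, against 0.968% of all genes, all 10 had a positive fold change, as did 48.3% of all genes tested, and their median was 0.81. The gene lists here and below were chosen with earlier results of these data known. Counts of DEG in them, set beside the share of all genes, are therefore a description and not a test. Values per library are given throughout in the order of replicates 1 to 4. Atf3, a stress-induced member of the ATF family, was at 3.65, 5.87, 4.76 and 2.41 FPKM in CON-pre and at 37.8, 37.9, 59.3 and 23.1 FPKM in CON-post (log2 fold change of 3.08 with a standard error of 0.35, adjusted p = 0.000106 by limma). Every exercised library was far above the highest resting value, and CON-post 4 was the lowest of the exercised libraries. Fos, the partner of Jun in AP-1, was at 1.58, 1.38, 1.39 and 1.02 FPKM before and 7.58, 4.60, 11.7 and 2.65 FPKM after exercise (log2 fold change of 1.79 with a standard error of 0.33, adjusted p = 0.00902 by limma). Its rise was uneven, with the lowest value again in CON-post 4, and its adjusted p was 0.0695 with only the CON libraries in the fit. Jun was at 11.4, 10.1, 13.9 and 24.6 FPKM before and 42.7, 32.1, 38.5 and 27.95 FPKM after (log2 fold change of 1.27 with a standard error of 0.23, adjusted p = 0.00779 by limma), and CON-pre 4 came close to the lowest exercised library. Its adjusted p with only the CON libraries was 0.0678. The small Maf factors Maff (log2 fold change 1.45, limma adjusted p = 0.000886) and Mafk (1.08, adjusted p = 0.000886) were the other up-regulated members.

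Nr4a3, an orphan nuclear receptor, was at 1.21, 1.71, 1.21 and 0.675 FPKM before and 18.99, 8.10, 16.8 and 11.1 FPKM after exercise (log2 fold change of 3.03 with a standard error of 0.26, adjusted p = 3.24e-05 by limma), an 11.4-fold difference between the group means. This was the DEG with the lowest adjusted p. Its relative Nr4a1 was already at 34.2, 41.7, 29.1 and 62.4 FPKM before exercise and at 57.5, 41.9, 57.6 and 51.4 FPKM after it (log2 fold change of 0.36 with a standard error of 0.22, adjusted p = 0.581 by limma), so the groups overlapped. In the list of Egr, Myc and other immediate early genes, 5 of 16 were up-regulated (0.968% of all genes), 14 had a positive fold change (48.3% of all genes) and the median was 0.40. Btg2, an antiproliferative protein that recruits the deadenylases of mRNA, was at 3.73, 3.76, 3.95 and 3.67 FPKM before and 14.9, 8.33, 15.4 and 10.8 FPKM after (log2 fold change of 1.55 with a standard error of 0.16, adjusted p = 6.77e-05 by limma). The resting libraries were close together, and the lowest exercised library, CON-post 2, was well above them. Arid5b, a DNA-binding regulator of chromatin, reached 6.36, 4.23, 7.96 and 4.73 FPKM from 2.15, 1.53, 1.89 and 1.12 FPKM (log2 fold change of 1.53 with a standard error of 0.20, adjusted p = 0.000497 by limma). The zinc finger factor Egr1 was at 1.62, 1.72, 1.09 and 1.23 FPKM before and 5.71, 4.74, 7.89 and 2.58 FPKM after (log2 fold change of 1.51 with a standard error of 0.35, adjusted p = 0.0455 by limma), and this call was lost in 15 of 28 alternative analyses. Csrnp1, a nuclear protein of the same class (1.36, adjusted p = 0.00111), and the survival factor Mcl1 (0.42, adjusted p = 0.0175) were also up-regulated, and Mcl1 lost the call in 5 of 28 alternatives (adjusted p up to 0.0832, without CON-pre 1). Myc did not pass the threshold, with 1.32, 1.93, 1.95 and 1.12 FPKM before and 3.71, 2.92, 3.58 and 3.78 FPKM after (log2 fold change of 0.96 with a standard error of 0.23, adjusted p = 0.0510 by limma), although its groups did not overlap. Of 12 Kruppel-like factors, Klf5 was the single DEG, at 1.27, 0.899, 1.08 and 0.686 FPKM before and 2.63, 3.14, 3.34 and 1.97 FPKM after (log2 fold change of 1.14 with a standard error of 0.18, adjusted p = 0.00353 by limma).

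Cyclic AMP and stress signals reach such genes through the cAMP response element (CRE, TGACGTCA), whose core TGACGT binds CREB and ATF proteins, and through the AP-1 site (TGACTCA). These letters were searched on both strands in the 250 bases before the RefSeq start of each gene in GRCm38.p6. A window was matched for 8988 of the genes tested, for 89 of the 109 up-regulated and for 14 of the 16 down-regulated genes. The CRE core, which is also part of every full CRE, was found in 22.5% of the windows of up-regulated genes (20 of 89) and in 10.8% of all windows. The full CRE was found in 5.62% and 2.81%, and the AP-1 site in 7.87% (7 of 89) and 2.93%. Among the 14 matched down-regulated genes, 1 window, that of Tmc7, held a CRE, and none held an AP-1 site. A match is a run of letters and not evidence of binding, and no test was made of these shares. The E-box CACGTG (8.99% of up-regulated and 8.76% of all windows), the glucocorticoid response element core ACANNNTGT (4.49% and 3.24%) and the CArG box bound by SRF (1.12% and 1.18%) were in similar shares of both. The 5 windows below are printed because they hold the core, the full CRE or the AP-1 site beside genes described here, in the direction of transcription with the matched letters in capitals (on either strand, so that AP-1 may read TGAGTCA). The windows are chr12:85473640-85473889 (plus strand) for Fos, with the core from base -66 counted from the start, and chr1:134079156-134079405 (minus strand) for Btg2, with a full CRE from base -166. They are chr4:48045055-48045304 (plus strand) for Nr4a3, with the core from bases -231, -205 and -147, and chr2:152105274-152105523 (plus strand) for Srxn1, with AP-1 sites from bases -102 and -45. For Bag3 the window is chr7:128523333-128523582 (plus strand), with an AP-1 site from base -20.
Fos: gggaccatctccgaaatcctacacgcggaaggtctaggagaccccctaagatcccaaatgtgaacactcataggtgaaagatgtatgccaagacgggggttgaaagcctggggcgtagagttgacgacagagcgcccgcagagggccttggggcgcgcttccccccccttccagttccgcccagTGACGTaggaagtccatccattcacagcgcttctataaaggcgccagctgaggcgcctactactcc
Btg2: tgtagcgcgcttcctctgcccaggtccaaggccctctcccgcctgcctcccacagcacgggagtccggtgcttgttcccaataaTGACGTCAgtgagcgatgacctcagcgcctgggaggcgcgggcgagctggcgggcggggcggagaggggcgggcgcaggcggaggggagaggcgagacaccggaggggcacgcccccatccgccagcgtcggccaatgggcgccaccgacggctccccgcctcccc
Nr4a3: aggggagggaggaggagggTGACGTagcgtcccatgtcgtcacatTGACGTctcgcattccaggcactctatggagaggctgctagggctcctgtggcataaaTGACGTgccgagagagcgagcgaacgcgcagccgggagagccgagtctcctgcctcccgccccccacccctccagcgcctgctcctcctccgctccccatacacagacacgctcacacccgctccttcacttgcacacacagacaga
Srxn1: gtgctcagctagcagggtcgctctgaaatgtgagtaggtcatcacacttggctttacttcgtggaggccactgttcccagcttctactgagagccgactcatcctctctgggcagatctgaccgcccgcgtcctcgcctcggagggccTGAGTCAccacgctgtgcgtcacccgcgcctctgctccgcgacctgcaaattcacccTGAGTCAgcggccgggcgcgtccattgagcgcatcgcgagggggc
Bag3: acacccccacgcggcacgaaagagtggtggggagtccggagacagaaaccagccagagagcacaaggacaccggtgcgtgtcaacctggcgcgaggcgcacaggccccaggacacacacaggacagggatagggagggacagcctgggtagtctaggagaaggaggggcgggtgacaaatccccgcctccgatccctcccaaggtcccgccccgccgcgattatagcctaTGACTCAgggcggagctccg

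Signalling genes upstream of these factors gave 1 DEG in each of 2 lists, where 1.11% of all genes tested were DEG. Of 22 genes of CREB, CaMK and calcineurin signalling, Sik1 alone was up-regulated and the median was -0.03. Sik1, a kinase that phosphorylates CREB coactivators and class II histone deacetylases, was at 1.99, 1.78, 1.58 and 1.83 FPKM before and 5.25, 4.82, 5.41 and 5.10 FPKM after (log2 fold change of 1.30 with a standard error of 0.13, adjusted p = 6.51e-05 by limma). It was among the most even responses, since the 4 exercised libraries were close together. Of 14 MAP kinase phosphatases and feedback inhibitors, 13 had a positive fold change with a list median of 0.16, where 48.3% of all genes had a positive one, and the single DEG was Dusp10, a phosphatase of p38 and JNK, at 10.6, 14.02, 12.3 and 7.73 FPKM before and 17.4, 22.6, 20.9 and 20.9 FPKM after (log2 fold change of 0.87 with a standard error of 0.15, adjusted p = 0.00598 by limma). The adjusted p of Dusp10 was 0.0578 with only the CON libraries in the fit. Otud1, a deubiquitinase outside the lists, had the third largest fold change of all DEG, from 2.37, 5.59, 3.84 and 3.81 FPKM to 41.5, 27.1, 45.3 and 19.1 FPKM (log2 fold change of 2.91 with a standard error of 0.31, adjusted p = 6.77e-05 by limma).

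Ppargc1a encodes PGC-1alpha, the coactivator that drives mitochondrial and fatty acid genes after exercise. It was at 6.28, 6.57, 6.42 and 7.11 FPKM in CON-pre and at 35.1, 18.8, 34.8 and 24.6 FPKM in CON-post (log2 fold change of 1.98 with a standard error of 0.19, adjusted p = 4.38e-05 by limma). The resting values lay within 1 FPKM of each other and every exercised library was well above them, a 4.30-fold difference between the means. None of the other 12 genes of its list was called, and the median of all 13 was 0.13. Esrrg, Nrip1 and Perm1 had fold changes of 0.56, 0.52 and 0.38 with limma adjusted p of 0.397, 0.119 and 0.0637, while Tfam and Nrf1, which act on the mitochondrial genome and on nuclear genes for it, were at 0.01 and -0.05. None of 17 TCA cycle genes and none of 28 respiratory chain genes was called, with medians of 0.07 in both lists, and with 1.11% of all genes called a count of 0 in lists of this size is near the background. The limma test gave 1 and 0 of these genes an unadjusted p under 0.05, against 11.1% of all genes.

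**Figure D2:**
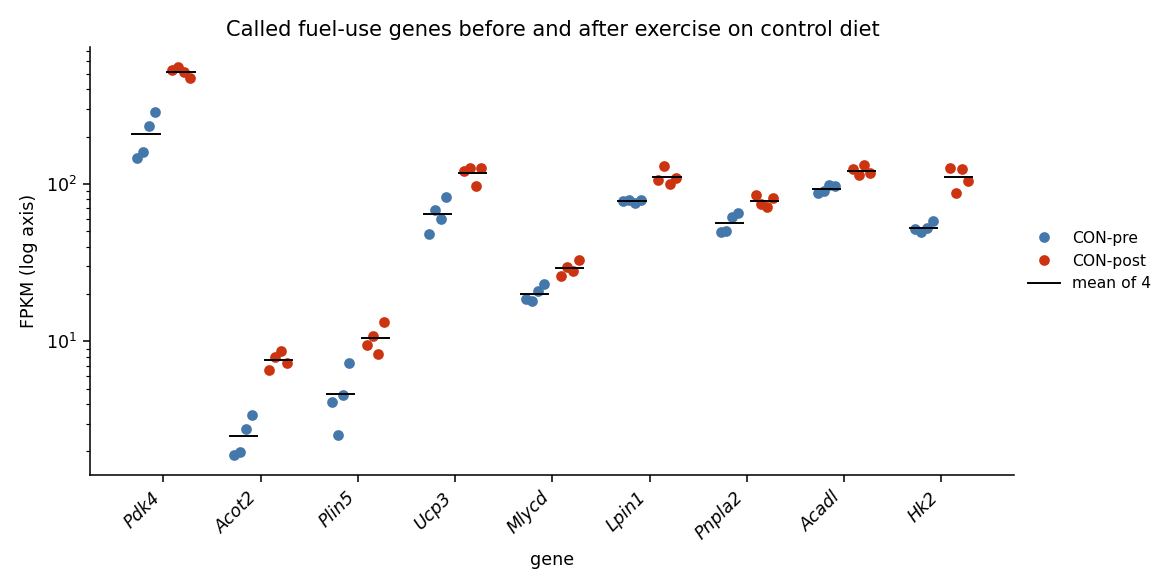
FPKM on a log axis of the 8 up-regulated genes of the fatty acid use list and of Hk2, in the 4 CON-pre (blue) and 4 CON-post (red) libraries, with a black line at the mean of 4. For each gene the 4 exercised libraries lie above all 4 resting libraries.

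Of 28 genes of fatty acid use, 8 were up-regulated, none was down-regulated, 26 had a positive fold change and the median was 0.43, while 0.968% of all genes tested were up-regulated and 48.3% had a positive fold change. Pdk4, the kinase that switches off pyruvate dehydrogenase and so spares glucose, was at 146, 159, 234 and 288 FPKM before and 529.6, 555, 518 and 469 FPKM after exercise (log2 fold change of 1.38 with a standard error of 0.21, adjusted p = 0.00210 by limma). Its resting level already varied, being highest in CON-pre 4, while the exercised libraries were close together. Pdk4 and Ucp3 are also known to be induced by fasting. The Methods give the CON-pre mice the same fast, but the sources used here do not say how long they had fasted when muscle was taken, so whether the groups differed in fasting is unknown. Acot2, a thioesterase of long acyl-CoA in the mitochondrial matrix, was at 1.89, 1.99, 2.77 and 3.40 FPKM before and 6.53, 7.97, 8.63 and 7.25 FPKM after (log2 fold change of 1.45 with a standard error of 0.15, adjusted p = 6.77e-05 by limma). Its near-identical neighbour Acot1 was not called (0.64, adjusted p = 0.219), and Cufflinks could have split reads between them. Ucp3, a mitochondrial carrier induced by fatty acids, was at 48.4, 68.1, 59.6 and 82.6 FPKM before and 121, 126, 96.8 and 126 FPKM after (log2 fold change of 0.87 with a standard error of 0.16, adjusted p = 0.00878 by limma). The malonyl-CoA decarboxylase Mlycd, which relieves the block on fatty acid entry into mitochondria, rose in log2 by 0.52 (adjusted p = 0.00709). Lpin1, a phosphatidate phosphatase that also acts as a coactivator, rose by 0.50 (adjusted p = 0.00344). The other 3 DEG of the list, named because their values were seen, were the lipid droplet protein Plin5 (1.16), the triglyceride lipase Pnpla2 (0.46) and the long-chain acyl-CoA dehydrogenase Acadl (0.38). Cpt1b, the muscle carnitine transferase that admits fatty acids to the mitochondrion, was not called (0.05, adjusted p = 0.854). With only the CON libraries in the fit, 4 genes of the list were called.

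Among 20 genes of glucose uptake and glycolysis, Hk2 was the single DEG, where 1.11% of all genes tested were DEG. Hk2, the hexokinase that traps glucose in the fibre, was at 51.8, 49.4, 52.4 and 57.8 FPKM before and 127, 87.5, 125 and 105 FPKM after exercise (log2 fold change of 1.05 with a standard error of 0.11, adjusted p = 7.40e-05 by limma). The glucose transporter Slc2a4 was between 132 and 152 FPKM in CON-pre and between 135 and 154 FPKM in CON-post. The median of the list was 0.01, and its sign depended on the scaling. None of 14 genes of glycogen metabolism was called. Of 21 insulin signalling genes, the pseudokinase Trib1 was the single DEG (2.81, 2.33, 3.11 and 2.84 FPKM before and 7.89, 4.56, 6.94 and 5.83 FPKM after; log2 fold change 1.04, limma adjusted p = 0.00179). Irs2 and Irs1, the docking proteins of the insulin receptor, had log2 fold changes of 0.60 and -0.46 with adjusted p of 0.120 and 0.381. Among 20 genes of lipid synthesis the ketone-using enzyme Aacs was up-regulated (0.65, adjusted p = 0.0397) and Dhcr7, which makes cholesterol in the last step of its pathway, was down-regulated (-0.57, adjusted p = 0.0108). The median was -0.08, 13 of the 20 had a negative fold change, as did 5805 of all 11256 genes, and neither call held with only the CON libraries in the fit.

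Chaperones and protective genes were among the DEG with the largest rises. Of 25 heat shock genes, 5 were up-regulated (0.968% over all genes tested), 21 had a positive fold change (48.3% over all genes) and the median was 0.23. Hspa1b and Hspa1a, the inducible HSP70 genes, are near-identical copies whose reads could have been split. Hspa1b was at 2.91, 3.02, 6.11 and 2.64 FPKM before and 35.6, 29.3, 45.02 and 11.01 FPKM after exercise (log2 fold change of 2.79 with a standard error of 0.44, adjusted p = 0.00253 by limma), and Hspa1a was at 3.52, 3.75, 8.78 and 3.02 FPKM before and 39.8, 30.4, 51.1 and 11.4 FPKM after (log2 fold change of 2.60 with a standard error of 0.42, adjusted p = 0.00353 by limma). Both were highest at rest in CON-pre 3 and lowest after exercise in CON-post 4, and the groups still did not overlap. The HSP70 partners Dnajb4 (0.92, adjusted p = 0.00101) and Bag3 (0.62, adjusted p = 0.00862) and the cardiac and muscle small heat shock protein Hspb7 (0.76, adjusted p = 0.00950) rose as well. Bag3, whose promoter window is printed above, was at 37.9, 35.97, 43.7 and 38.9 FPKM before and 58.1, 59.6, 73.3 and 52.2 FPKM after. The abundant Hspa8 and the mitochondrial Hspd1 had fold changes of 0.09 and 0.04, and neither was called. No promoter window of an up-regulated gene held the heat shock element core, made of inverted repeats of GAA, which occurred in 0.334% of all windows. With so low a share, a count of 0 in 89 windows is near the background and is no result about these genes.

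Srxn1, the sulfiredoxin that repairs over-oxidized peroxiredoxins, was at 10.01, 10.7, 10.1 and 9.90 FPKM before and 40.1, 29.5, 48.8 and 22.5 FPKM after (log2 fold change of 1.68 with a standard error of 0.23, adjusted p = 0.000839 by limma). Its 4 resting values were within 1 FPKM of each other, and CON-post 4 was the lowest exercised library, still far above the resting level. The metal-binding protein Mt1 was at 35.02, 32.2, 27.9 and 23.6 FPKM before and 64.7, 101, 57.8 and 83.3 FPKM after (log2 fold change of 1.33 with a standard error of 0.23, adjusted p = 0.00518 by limma). Its copy Mt2 did not pass (33.1, 21.7, 23.9 and 9.33 FPKM before and 37.99, 117, 50.8 and 48.03 FPKM after; 1.49, adjusted p = 0.0996), and it was more spread, with CON-post 2 far above the other exercised libraries. Srxn1 and Mt1 were the 2 DEG among 20 metallothionein and antioxidant genes, where 1.11% of all genes tested were DEG. The enzymes Sod1, Sod2, Cat and Gpx1 were between -0.03 and 0.20 in log2 fold change.

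The list with the most DEG was that of mechanical load, the Z-disc and targets of the stretch-sensitive factors YAP and MRTF. Like the other lists, it was chosen with earlier results of these data known, so its rank is a description only. Of its 27 genes, 11 were up-regulated (0.968% of all genes tested were), none was down-regulated, 24 had a positive fold change (48.3% of all genes), and the median was 0.74. Xirp1, an actin-binding protein that gathers at sites of strain, was at 24.9, 37.2, 30.9 and 19.5 FPKM before and 162, 125, 200.3 and 98.3 FPKM after exercise (log2 fold change of 2.35 with a standard error of 0.26, adjusted p = 9.24e-05 by limma). Cyr61, a secreted matrix protein and a classical YAP target, was at 5.45, 6.98, 7.92 and 7.35 FPKM before and 28.7, 18.4, 39.5 and 23.5 FPKM after (log2 fold change of 1.87 with a standard error of 0.18, adjusted p = 4.96e-05 by limma). In both genes the lowest exercised library was far above the highest resting one. Enah, which lengthens actin filaments, was at 2.81, 4.13, 3.44 and 2.65 FPKM before and 12.98, 10.3, 16.7 and 10.1 FPKM after (log2 fold change of 1.78 with a standard error of 0.18, adjusted p = 6.51e-05 by limma). Abra, an actin-binding protein of striated muscle, was at 63.8, 85.5, 80.05 and 66.8 FPKM before and 215, 157, 214 and 176 FPKM after (log2 fold change of 1.36 with a standard error of 0.15, adjusted p = 7.40e-05 by limma). Ifrd1, a transcriptional coregulator of muscle regeneration, was at 13.4, 17.02, 17.3 and 15.5 FPKM before and 41.1, 37.7, 43.1 and 26.8 FPKM after (log2 fold change of 1.19 with a standard error of 0.13, adjusted p = 0.000102 by limma). The other 6 DEG, named because their values were seen, were Lmod2 (1.42), Flnc (1.22), Klhl40 (1.20), Vgll2 (0.94), Myh10 (0.72) and Nrap (0.36), most of them parts of the thin filament or Z-disc. Ankrd1, a stretch-induced repeat protein, was at 15.6, 25.98, 12.5 and 8.53 FPKM before and 49.6, 54.7, 56.7 and 25.1 FPKM after, but the groups overlapped and the adjusted p was 0.113.

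**Figure D3:**
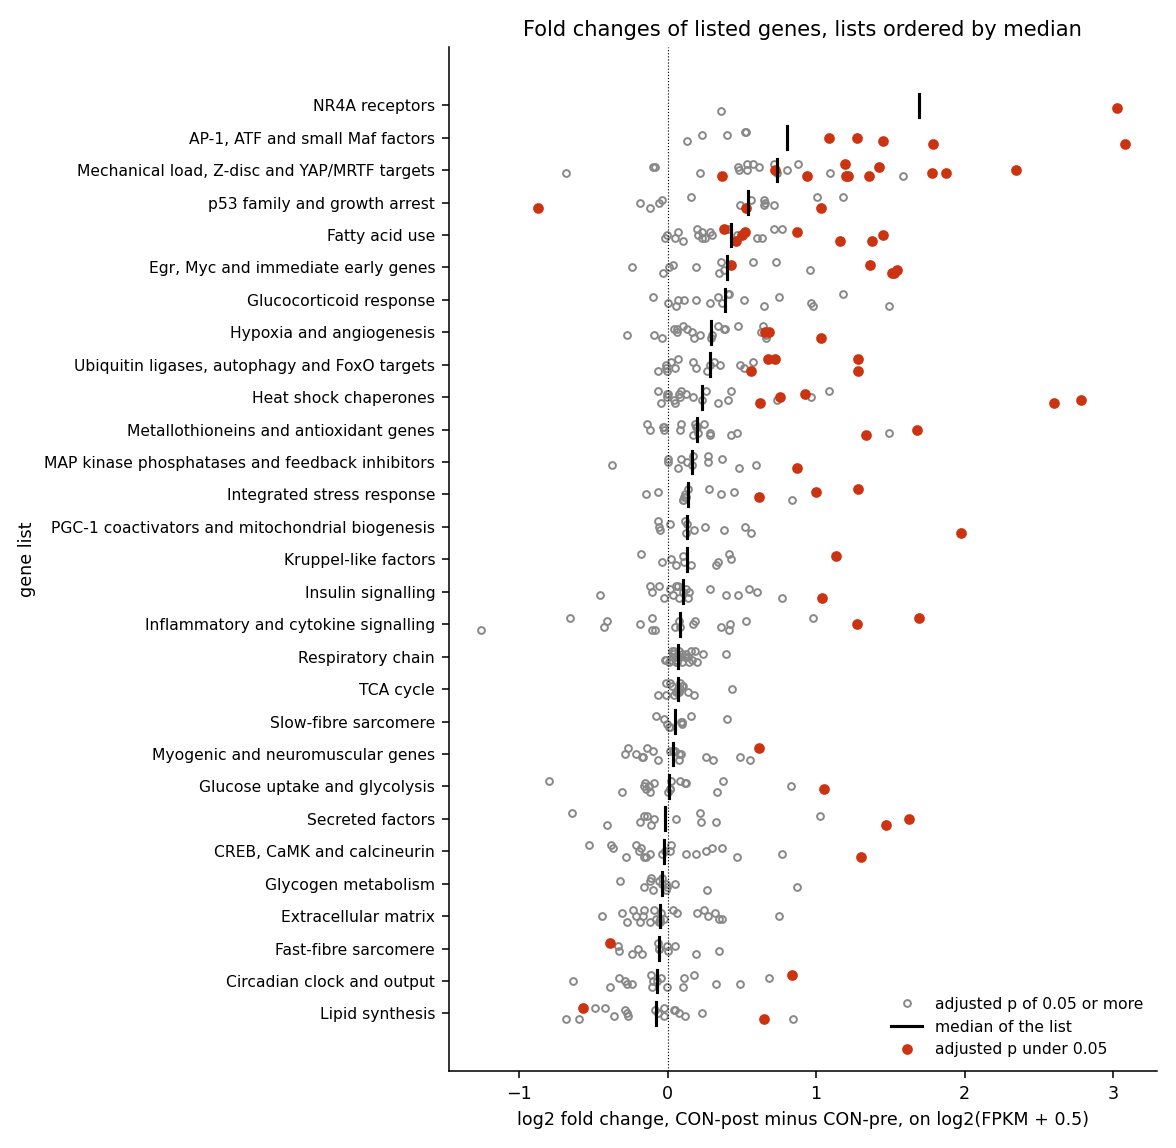
Log2 fold change of CON-post against CON-pre for each tested gene of 29 lists, ordered by the median (black bar), with DEG filled in red and other genes as open circles. Below the 2 NR4A receptors, the AP-1 list (median 0.81) and the mechanical load list (0.74) sit farthest to the right, and the respiratory chain and TCA cycle lists (0.07) lie close to 0.

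The machinery of protein breakdown contributed 5 DEG of 21 genes, with 17 positive fold changes and a median of 0.29, where 1.11% of all genes tested were DEG and 48.3% had a positive fold change. Trim63 encodes MuRF1, the ubiquitin ligase that acts on the thick filament, and was at 139, 88.04, 114 and 175 FPKM before and 371, 282, 334 and 248 FPKM after (log2 fold change of 1.28 with a standard error of 0.22, adjusted p = 0.00637 by limma). Its partner in atrophy Fbxo32 was at 95.7, 51.1, 53.3 and 78.1 FPKM before and 105, 95.5, 96.8 and 86.97 FPKM after (log2 fold change of 0.51 with a standard error of 0.18, adjusted p = 0.244 by limma), so the groups overlapped. Fam134b, a receptor for autophagy of the endoplasmic reticulum, was at 47.3, 46.6, 44.98 and 59.9 FPKM before and 158, 96.7, 143 and 98.1 FPKM after (log2 fold change of 1.29 with a standard error of 0.18, adjusted p = 0.00101 by limma). The autophagy genes Gabarapl1 (0.68, adjusted p = 0.00779) and Optn (0.56, adjusted p = 0.00518) and the ligase Cblb (0.72, adjusted p = 0.00681) were the remaining DEG. In the integrated stress response 3 of 15 genes were up-regulated, against 0.968% of all genes. Impact, an inhibitor of the kinase that senses amino acid lack, rose by 1.28 (adjusted p = 0.00366), the amino acid transporter Slc38a2 by 1.00 (adjusted p = 0.000307) and the stress sensor Ern1 by 0.61 (adjusted p = 0.00878). Atf4, at the core of that response, and the chaperone Hspa5 were at 0.10 and -0.07. Among 16 p53 and growth arrest genes Phlda1 (1.03, adjusted p = 0.0138) and Gadd45a (0.53, adjusted p = 0.0455) were up-regulated and Ddit4l was down-regulated. The call was lost in 5 of 28 alternatives for Phlda1 and in 21 for Gadd45a.

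Genes of vessels and of signals between cells gave 3 DEG of 24 (12.5%) for hypoxia and angiogenesis and 2 of 20 (10%) for inflammation, against 1.11% of all genes tested. Of those 24 hypoxia and angiogenesis genes, 21 had a positive fold change with a list median of 0.29, where 48.3% of all genes had a positive one, and 3 were DEG. These were Cited2, which competes with HIF-1 for its coactivator (11.4, 7.67, 12.7 and 12.96 FPKM before and 24.4, 23.02, 29.01 and 17.2 FPKM after; 1.03, limma adjusted p = 0.00398), the growth factor Fgf1 (0.68, adjusted p = 0.0303) and the metalloprotease Adamts9 (0.66, adjusted p = 0.0125). The adjusted p of Cited2 was 0.0520 with only the CON libraries in the fit and that of Adamts9 was 0.0531 without CON-pre 2, while Fgf1 lost the call in 9 of 28 alternatives (adjusted p up to 0.175). Vegfa, the main angiogenic factor of muscle, was between 49.8 and 59.4 FPKM in CON-pre and between 60.2 and 67.1 FPKM in CON-post, a difference without overlap that did not pass the test (0.22, adjusted p = 0.263). Hbegf, a ligand of the EGF receptor, was at 3.47, 4.92, 3.09 and 4.72 FPKM before and 15.9, 11.4, 15.3 and 11.4 FPKM after (log2 fold change of 1.63 with a standard error of 0.18, adjusted p = 7.40e-05 by limma). The chemokine Cxcl10 was at 0.215, 0.153, 0.107 and 0.381 FPKM before and 1.42, 1.03, 2.43 and 1.21 FPKM after (log2 fold change of 1.47 with a standard error of 0.27, adjusted p = 0.00917 by limma). Both resting groups of Cxcl10, on either diet, had a mean under the filter of 0.5 FPKM, so it was tested only because of its exercised libraries, and its call is no support for the list. The same holds for 1 other of the 125 DEG, BB123696. Hbegf and Cxcl10 were the DEG of the 14 secreted factors tested, of which 7 had a positive fold change, with a median of -0.02. Il6 was below the expression filter with at most 0.218 FPKM in any CON library. Tnfrsf12a, the receptor for TWEAK, was at 10.7, 12.4, 14.2 and 7.58 FPKM before and 29.6, 51.8, 47.8 and 24.1 FPKM after (log2 fold change of 1.69 with a standard error of 0.24, adjusted p = 0.00108 by limma). The kinase Map3k8 was the second DEG among 20 genes of inflammation (1.27, adjusted p = 0.0397), and its call was lost in 13 of 28 alternatives (adjusted p up to 0.217). Of these 20 genes 12 had a positive fold change, and the median was 0.08. In the myogenic list Musk, the receptor kinase of the neuromuscular junction, was the single DEG of 19 (0.62, adjusted p = 0.0126), and Myf6 had an adjusted p of 0.0842. Musk lost the call without CON-pre 1 (adjusted p = 0.0623) and without CON-post 4.

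Clock genes and targets of glucocorticoids were examined because the exercised mice were sampled hours after the run. Of 19 clock genes, Nfil3, a repressor at the output of the clock, was up-regulated from 9.47, 9.79, 7.62 and 9.23 FPKM to 17.6, 15.8, 15.1 and 17.7 FPKM (log2 fold change of 0.84 with a standard error of 0.15, adjusted p = 0.00817 by limma). It was the single DEG of the list, and with 1.11% of all genes called this count is near the background. Of the 19 genes 12 had a negative fold change, and the median was -0.07. Per1 was between 4.83 and 18.5 FPKM in CON-pre and between 5.89 and 14.6 FPKM in CON-post, and Nr1d1 was at 66.7, 53.2, 51.9 and 39.6 FPKM before and 18.2, 59.5, 58.05 and 19.1 FPKM after. Both varied widely within each group and neither was called (limma adjusted p = 0.950 and 0.554). None of 18 glucocorticoid targets was called, and with 1.11% of all genes called a count of 0 in a list of this size is near the background. Of the 18 targets, 17 had a positive fold change (48.3% of all genes did), the median was 0.39, and 5 had an unadjusted p under 0.05 by limma (11.1% of all genes). Fkbp5, a textbook target, was at 7.68, 16.1, 7.86 and 22.7 FPKM before and 31.01, 25.8, 16.3 and 27.1 FPKM after (log2 fold change of 0.97 with a standard error of 0.31, adjusted p = 0.199 by limma).

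**Figure D4:**
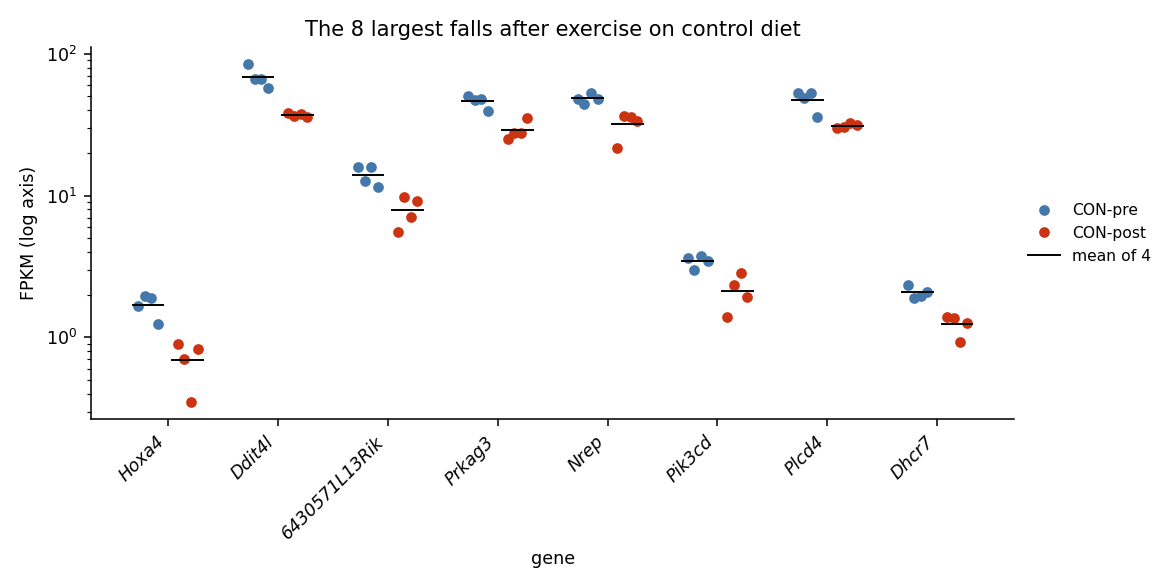
FPKM on a log axis of the 8 DEG with the largest falls after exercise, in the 4 CON-pre (blue) and 4 CON-post (red) libraries, with a black line at the mean of 4. For each gene all 4 exercised libraries lie below all 4 resting libraries, but the groups are close together.

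Down-regulated genes were few and their changes were moderate. Ddit4l, an inhibitor of mTORC1 signalling, was at 84.3, 66.00, 66.7 and 57.6 FPKM before and 38.4, 36.4, 37.3 and 35.6 FPKM after exercise (log2 fold change of -0.87 with a standard error of 0.16, adjusted p = 0.00779 by limma). The exercised libraries were within 3 FPKM of each other, below every resting library. Prkag3, the gamma subunit of AMP-activated kinase found in fast fibres, was at 49.96, 47.2, 47.9 and 39.7 FPKM before and 24.98, 27.4, 27.7 and 35.4 FPKM after (log2 fold change of -0.67 with a standard error of 0.11, adjusted p = 0.00262 by limma). It was a DEG in each of 28 alternative analyses. Hoxa4 was at 1.67, 1.96, 1.90 and 1.24 FPKM before and 0.903, 0.706, 0.348 and 0.824 FPKM after (log2 fold change of -0.89 with a standard error of 0.19, adjusted p = 0.0265 by limma), and 6430571L13Rik was at 15.96, 12.7, 15.9 and 11.4 FPKM before and 5.57, 9.79, 7.04 and 9.13 FPKM after (log2 fold change of -0.81 with a standard error of 0.16, adjusted p = 0.0135 by limma). Hoxa4, the largest fall among the DEG, lost the call in 8 of 28 alternatives, the replicate block and the omission of CON-pre 1, 2 or 3 or of CON-post 2 or 3 among them (adjusted p up to 0.0934). The call of 6430571L13Rik was lost in 4 of 28, with only the CON libraries (adjusted p = 0.116) and without CON-pre 1, CON-pre 3 or CON-post 3. Nrep (log2 fold change -0.62, adjusted p = 0.0363), the phosphoinositide kinase subunit Pik3cd (-0.62, adjusted p = 0.0496) and the phospholipase Plcd4 (-0.58, adjusted p = 0.0397) were each lost in 10 or more of 28 alternatives. Dhcr7 was at 2.35, 1.89, 1.97 and 2.09 FPKM before and 1.38, 1.37, 0.930 and 1.26 FPKM after (log2 fold change of -0.57 with a standard error of 0.11, adjusted p = 0.0108 by limma).

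Among the contractile and matrix genes a single fast-fibre gene was called. None of 10 slow-fibre sarcomere genes and none of 25 extracellular matrix genes was called. With 1.11% of all genes called, counts of 0 or 1 in lists of this size are near the background and are no result about the lists. Among 14 fast-fibre genes the light chain Myl1, an abundant transcript of muscle, was at 4883, 4660.3, 4823 and 4233 FPKM before and 3080.2, 4205, 3513 and 3469 FPKM after (log2 fold change of -0.39 with a standard error of 0.09, adjusted p = 0.0397 by limma). It was the single DEG of the list, its call was lost in 14 of 28 alternatives, and its log2 fold change was 0 under quantile normalization. That normalization gives genes of equal rank equal values in every library, so it cannot show a fall that leaves the ranks unchanged. Of the 14 fast-fibre genes 11 had a negative fold change, where 5805 of all 11256 genes did, and 5 had an unadjusted limma p under 0.05, as did 11.1% of all genes. Their median was -0.06, and 0.0051 under quantile normalization. Their summed FPKM was between 77302 and 85976 in CON-pre and between 70082 and 76743 in CON-post, without overlap.

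The exercised libraries did not respond equally. The lowest of the 4 exercised values fell in CON-post 4 for 40 of the 109 up-regulated genes, in CON-post 2 for 37, in CON-post 3 for 20 and in CON-post 1 for 12. Over all genes tested, CON-post 4 held the lowest value of the 4 for 21.6%, CON-post 2 for 12.1%, CON-post 3 for 18.3% and CON-post 1 for 48.0%. The highest exercised value was in CON-post 3 for 49 and in CON-post 1 for 36 of the 109. Without CON-post 4 there were 104 rises, and without CON-post 2 there were 110. At rest, CON-pre 4 had the highest value for 45 of the 109 genes, such as Pdk4, Jun and Trim63, and for 25.9% of all genes. CON-pre 3 and CON-pre 2 had it for 27 each (31.3 and 21.1% of all genes), and CON-pre 1 for 10 (21.7%). Leaving out CON-pre 4 gave 153 rises and 34 falls, and leaving out CON-pre 1 gave 82 rises and 6 falls.

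The 8 libraries from mice on high-fat diet share none with this comparison. Their spread did enter the common limma fit that chose the DEG and that gave the p-values on both diets, so the values of the same genes on high-fat diet are not an independent test. Of the 109 up-regulated genes 108 were higher in HFD-post than in HFD-pre, the exception being Zbtb2, where 59.3% of all genes tested were higher, and 87 of them had an unadjusted limma p under 0.05, as did 8.5% of all genes. With other scalings 107 of the 109 and 45.3 to 50.6% of all genes were higher. Of the 16 down-regulated genes 15 were lower, the exception being Dhcr7, and 12 of them with an unadjusted p under 0.05 (3.22% of all genes). At an adjusted p under 0.05, 61 genes were DEG on high-fat diet (0.542% of genes tested), 55 of them up-regulated (0.489%) and 6 down-regulated (0.0533%). This balance moved with the scaling, to 40 rises and 17 falls with upper-quartile scaling, 41 and 13 with median-of-ratios scaling and 40 and 20 with quantile normalization. The diets shared 42 DEG, which are 33.6% of the 125 on control diet and 68.9% of the 61 on high-fat diet. The overlap rests on few libraries: with 1 HFD library left out it was 16 to 40 genes, and the DEG on high-fat diet fell to 21 without HFD-pre 2 (16 shared) or HFD-post 2 (17 shared), to 24 without HFD-post 3 (19 shared), to 26 without HFD-pre 1 (21 shared) and to 36 without HFD-pre 3 (28 shared) or HFD-post 4 (30 shared). The shared falls were Klhl31, Lrrc38, Nrep and Prkag3. Ppargc1a rose by 1.98 on control diet and by 2.10 on high-fat diet, a difference of 0.12 (standard error 0.26, limma adjusted p = 1.000). Hk2 rose by 1.05 and 1.15, a difference of 0.10 (standard error 0.16, limma adjusted p = 1.000).

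**Figure D5:**
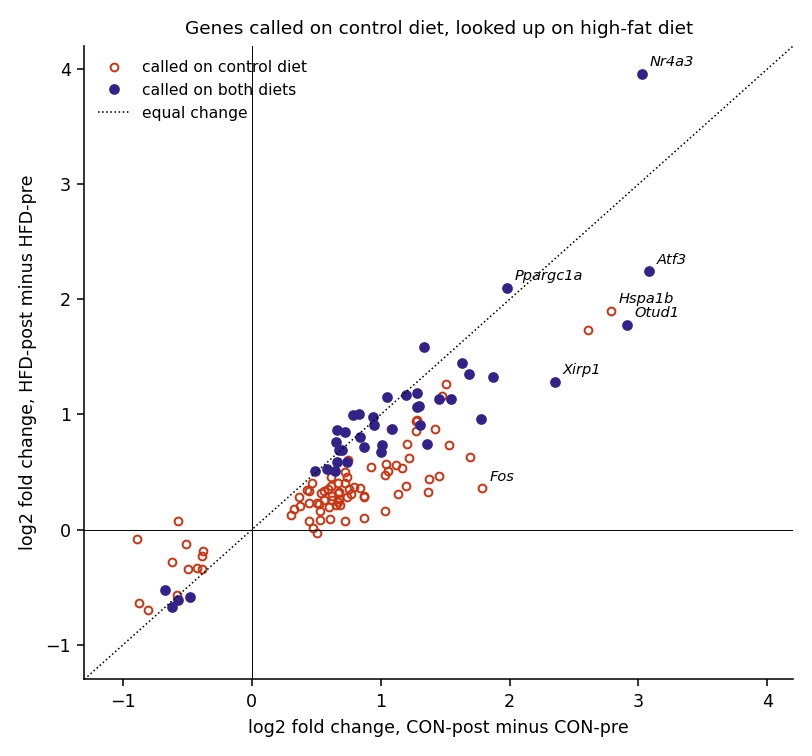
Log2 fold change after exercise on high-fat diet against that on control diet for the 125 genes called on control diet, filled where also called on high-fat diet, with a dotted line of equal change. Nr4a3 lies above the line, Ppargc1a lies close to it, and Fos, Xirp1, Otud1 and Atf3 lie below it.

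Whether a response differed between the diets was tested directly by the interaction in the same limma fit. No gene had an adjusted p under 0.05 (0% of genes tested), the smallest was 0.926, and 356 genes (3.16%) had an unadjusted p under 0.05. Of the 109 up-regulated genes 97 had a smaller fold change on high-fat diet, whereas 60.3% of all genes had a larger one, but they had been chosen by their values on control diet, which favours that direction. The share of all genes with a larger fold change was 52.8% with upper-quartile scaling, 50.6% with median-of-ratios scaling and 49.8% with quantile normalization, where 99, 100 and 99 of the 109 had a smaller one. In the converse look-up, 29 of the 55 genes up-regulated on high-fat diet had a smaller fold change on control diet. The median log2 fold change of the 109 was 0.84 on control and 0.51 on high-fat diet, and that of the 55 was 0.83 on control and 0.87 on high-fat diet. An unadjusted interaction p under 0.05 was reached by 44 of the 125 DEG, of which 40 were rises that were smaller on high-fat diet, 1 was a larger rise (Nr4a3) and 3 were falls (Dhcr7, Hoxa4 and Xpr1). Acot2 changed by 1.45 on control and 0.46 on high-fat diet, a difference of -0.98 (standard error 0.22, limma adjusted p = 0.926). Ifrd1 changed by 1.19 and 0.38, a difference of -0.81 (standard error 0.19, limma adjusted p = 0.926). Pdk4 changed by 1.38 and 0.44, a difference of -0.94 (standard error 0.30, limma adjusted p = 1.000), and Fos by 1.79 and 0.36, a difference of -1.43 (standard error 0.47, limma adjusted p = 1.000). None of these passed the adjustment over all genes tested.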

How the data were processed

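Quadriceps polyA RNA was sequenced from stranded libraries. Per the labels and the Methods, the authors checked reads with FastQC, aligned them with TopHat to mm9 and estimated expression with Cufflinks, and the deposited table holds FPKM, scaled by the authors for transcript length and library size. FPKM are not counts, so no count model was used, depth is unknown in absolute terms, and precision rests on the spread of 4 libraries a group. Of 24487 entries, 27 with names turned into dates (0.0771% of all FPKM) were left out, and entries of the same symbol (260 symbols) were added up, giving 23970 symbols. No column of sample values was left unused (0).

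Genes averaging 0.5 FPKM or more were fitted with limma 3.58.1 in R 4.3.3, all 4 groups in 1 fit with a trended variance, after adding 0.5 FPKM and taking log2. The members and gene lists were chosen with earlier results of these data known. Named genes are the 12 largest rises, the 8 largest falls, up to 5 DEG of lowest adjusted p in each of 29 lists, and 24 genes of general interest in exercised muscle. All other genes in the text were named after their values were seen. Promoter windows are RefSeq GRCm38.p6 sequences, while the Methods name mm9, and the deposited table holds no coordinates. Near-identical copies (Hspa1a and Hspa1b, Mt1 and Mt2, Acot1 and Acot2) are uncertain. On simulated data of 11185 genes for this comparison, 194 of 199 changed genes were called in the right direction and 13 unchanged ones were called. These counts describe that data only, and the share of small differences missed in the measured libraries was not tested. Alternatives were other pseudocounts (0.1 and 1), filters, scalings, library weights, fits and single libraries left out. Python 3.11.15 with pandas 2.3.3 (numpy 2.4.6) built the tables, and matplotlib 3.10.9 the figures.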

Additional observations from a re-analysis of the deposited data

Results flagged for a closer look

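In 8 of 152 groups of 4 checked among the named genes, the highest or lowest library stood farther from the others than Dixon's 95% limit, which chance alone gives in about 1 in 20 groups. CON-pre 3 had the highest resting Hspa1b (6.11 FPKM, others 2.64 to 3.02) and Hspa1a (8.78 FPKM, others 3.02 to 3.75), and reads of these near-identical genes could have been split. CON-pre 4 was high for Fam134b (59.9 FPKM, others 44.98 to 47.35) and Gadd45a (14.2 FPKM, others 12.2 to 12.5) and low for Ern1 (1.29 FPKM, others 1.74 to 1.83). Slc38a2 was low in CON-pre 2 (20.9 FPKM, others 22.9 to 23.3) and in CON-post 4 (33.5 FPKM, others 48.7 to 51.4). Mt2 was high in CON-post 2 (117 FPKM, others 38.0 to 50.8). The causes were not tested.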

How the results depend on the processing

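The 125 DEG of control-diet exercise became 72 with only the 8 CON libraries in the fit (70 of them among the 125), and between 108 and 181 in the other alternatives with all libraries. The HFD comparison gave 61 DEG and 37 without the filter on low values. With each library left out in turn, the counts ranged from 88 to 187 on control diet, from 21 to 78 on high-fat diet and from 0 to 1 for the interaction. On high-fat diet the count was 21 without replicate 2 of either group, 24 without HFD-post 3, 26 without HFD-pre 1, and 36 without HFD-pre 3 or HFD-post 4. The single interaction call was a different pseudogene each time, Nutf2-ps1 without CON-post 4 and Rpl34-ps1 without HFD-post 4. Of the 64 named DEG, 41 were called in every alternative, none changed direction, and 10 lost the call in more than 5 alternatives, among them Gadd45a (21), Pik3cd (18), Aacs (15) and Egr1 (15). Of 11 named genes that were not called, 4 passed in some alternative: Myc, Myf6, Irs1 and Irs2. Replicate numbers gave no pairing: CON-pre and CON-post are different mice, and the correlation of the deviations of same-numbered libraries was -0.144, -0.081, 0.0673 and -0.00908. With the replicate number as a block, 116 genes were DEG on control diet, 42 on high-fat diet and 0 in the interaction. The absolute depth of the libraries could not be recovered from FPKM, so no detection limit is given for low values.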

Other observations

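Of the 125 DEG, 66 belonged to a gene list, and several of the others are known muscle or metabolic genes, singled out here after their values were seen. Tacc2, a coiled-coil protein of the centrosome family, was between 64.5 and 77.5 FPKM in CON-pre and between 118 and 134 FPKM after exercise (a log2 fold change of 0.87 with a standard error of 0.08, adjusted p = 4.38e-05 by limma). It had the lowest interaction p of all genes in limma (adjusted p = 0.926), with a log2 fold change of 0.29 on high-fat diet. Pank1, a kinase at the entry to coenzyme A synthesis, was between 1.70 and 2.43 FPKM before and between 4.46 and 5.39 FPKM after exercise (1.12, adjusted p = 0.000450). Midn was between 4.21 and 5.95 FPKM before and between 8.59 and 14.5 FPKM after (1.06, adjusted p = 0.000786). Ip6k3, an inositol hexakisphosphate kinase of muscle, rose by 0.66 (adjusted p = 0.00862), and Cntfr, the receptor for ciliary neurotrophic factor, by 0.70 (adjusted p = 0.00518). All 5 genes had CON-post libraries above every CON-pre library.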
